A study of Mus musculus with 14 samples.

Results

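Fibro cells are mouse lung cells sorted for GFP without tdTomato, and the comparison is of their RNA at day 7 after bleomycin with their RNA from uninjured lungs. The animals were Foxd1-Cre;Rosa26-tdTomato mice bred with Coll-GFP mice, so tdTomato marks every cell descended from the Foxd1 lineage and GFP marks cells in which the collagen reporter is active. Fibro cells are thus reporter-positive cells of another descent. The study also sorted Peri cells (tdTomato alone) and PeriFibro cells (both colours), and it hybridised 14 samples to bead arrays of 1 colour (Illumina MouseWG-6 v2.0). Fibro cells account for 5 of them. Fibro bleomycin replicates 1, 2 and 3 came from male mice given 0.8 U/kg bleomycin into the trachea, and Fibro uninjured replicates 1 and 2 from female mice given saline. Each injury contrast is therefore also a contrast of the sexes, and the effects of bleomycin and of sex cannot be told apart. Nothing in the labels ties the replicates to separate animals, so p-values measure only the spread between samples. That spread was estimated over all 14 samples and not over the 5 Fibro samples alone. Genes were chosen by chromosome alone: of 12443 genes with a probe above background on at least 2 arrays, 12046 lie on autosomes and are described here.

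Bleomycin is a drug that breaks DNA, and a dose into the trachea injures the alveolar epithelium, draws in monocytes and is followed by scarring. Lung fibroblasts answer such injury by making fibrillar collagen and, in part, by becoming contractile myofibroblasts. Alveolar type 2 cells make surfactant and rebuild the epithelium, while macrophages that arise from monocytes take up debris and secrete chemokines, proteases and growth factors.

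The label was checked against marker genes. Col1a1, a chain of type I collagen, read 5.96, 5.65 and 6.53 log2 units on the bleomycin arrays, against 5.93 and 4.73 on the uninjured arrays. The lowest signal that counted as detected was 4.66 to 4.81 on these 5 arrays, and Col1a1 was detected on 3 of 3 bleomycin arrays and 1 of 2 uninjured arrays. Lum, a proteoglycan of fibroblasts, was detected on none of the 5, and 10 or 11 of 12 fibroblast markers were detected per array. Genes of other cells were also present: 21 or 22 of 22 endothelial markers, 20 of 20 markers of interstitial and monocyte-derived macrophages and 13 to 15 of 15 alveolar type 2 and surfactant genes were detected per array. The epithelial surface marker Epcam was not detected on any of them. These arrays hold transcripts of several cell types, and the population is called Fibro here for its gate only.

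Summed over each marker list, signals on bleomycin arrays and uninjured arrays differed for some cell types and overlapped for others. The alveolar type 2 list summed to 27600 to 39500 linear signal units on the bleomycin arrays, against 85100 to 86000 on the uninjured arrays. Interstitial and monocyte-derived macrophage genes summed to 33300 to 52300, against 10700 to 15300, and alveolar macrophage genes to 7210 to 12000, against 19200 to 21500. Pan-leukocyte genes summed to 42200 to 61500, against 30700 to 37500. Dendritic cell genes summed to 27900 to 32700, against 10100 to 15600. The sums of the stromal lists did not move together. Alveolar fibroblast and lipofibroblast genes summed to 5160 to 8200 on the bleomycin arrays, against 12100 to 18100 on the uninjured arrays. The array medians of this list overlapped, at 5.40, 6.65 and 5.50 log2 units after bleomycin, against 6.40 and 7.22. Of its 14 genes, 12 had a negative difference and 2 a positive one. Adventitial fibroblast genes summed to 10700 to 11900, against 8430 to 9440. Yet 10 of those 14 adventitial genes had a negative difference and 4 a positive one (median log2 difference -0.19). The array medians of that list overlapped, so its higher sum describes its brightest members and not most of the list. Mesothelial genes summed to 119 to 373, against 651 to 1100. Endothelial genes (59000 to 96000, against 76600 to 143000) and the general fibroblast list (2990 to 4940, against 3120 to 3230) overlapped. In bulk RNA, fewer cells of a type and less RNA per cell cannot be told apart, and the part of these lists in the values of single genes was not tested.

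**Figure D1:**
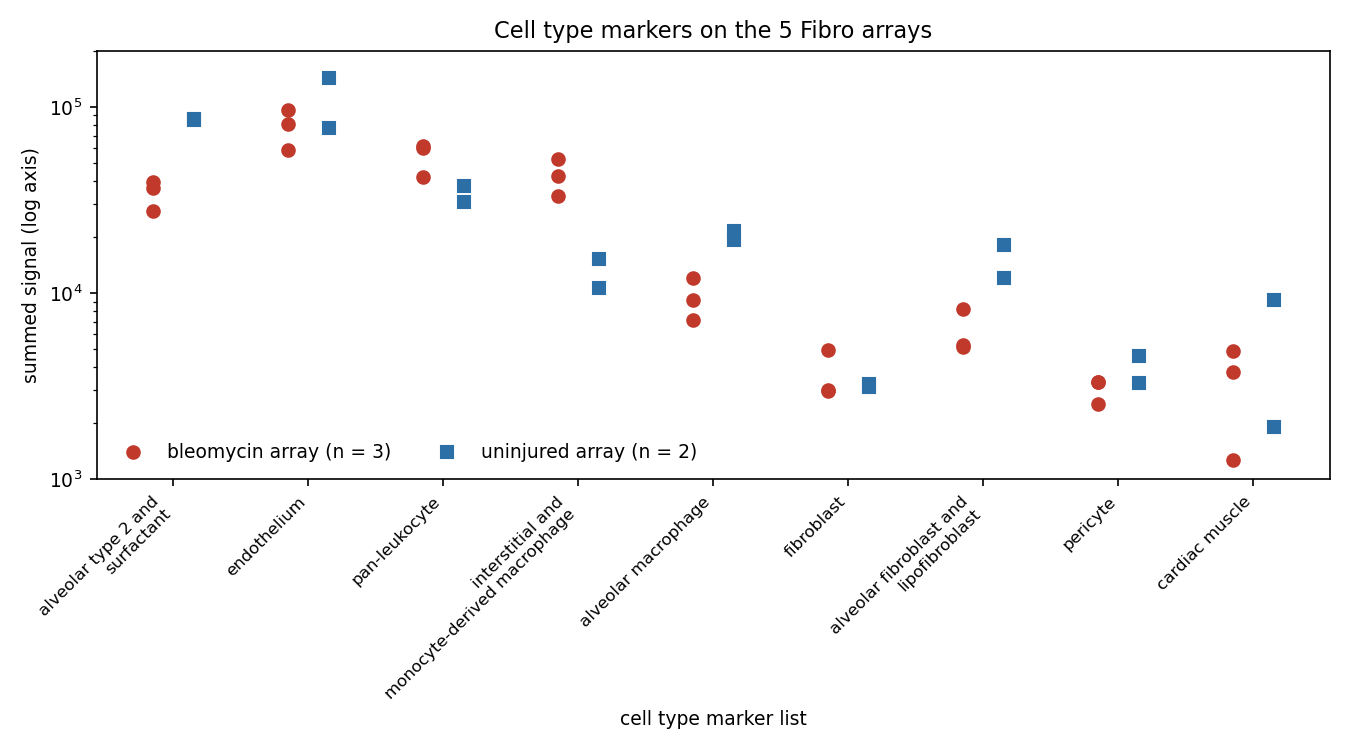
Summed signal of cell type marker lists on each Fibro array (log axis), bleomycin arrays as red circles (n = 3) to the left of uninjured arrays as blue squares (n = 2). The alveolar type 2 and alveolar macrophage lists lay lower on every bleomycin array, the interstitial and monocyte-derived macrophage list lay higher, and the fibroblast, endothelial and cardiac muscle lists overlapped.

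Bleomycin replicates 1 and 3 were the closest pair of Fibro arrays (Pearson's r = 0.977 across genes). Bleomycin replicate 2 correlated at 0.923 and 0.938 with the other 2 bleomycin arrays and at 0.956 with uninjured replicate 2. Uninjured replicate 1 correlated at 0.955 with bleomycin replicate 3 and at 0.931 with uninjured replicate 2. Cardiac muscle genes summed to 1270 to 4880 on the bleomycin arrays and to 1910 and 9230 on the uninjured arrays.

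After bleomycin 190 autosomal genes differed by 2-fold or more at an adjusted p under 0.05 (limma, 1.58% of 12046), and such genes are said to be called. Of these, 68 were higher (0.565%) and 122 were lower (1.01%). Counts of calls in a list or family below stand beside these shares. A single call or none in a list is not read as a result about that list. The 3 bleomycin and 2 uninjured arrays did not overlap for 2705 genes (22.5%), and 1525 genes had an unadjusted p under 0.05. Single arrays weighed on the number: it was 107 without bleomycin replicate 1, 307 without bleomycin replicate 2, 124 without uninjured replicate 1 and 80 without uninjured replicate 2. It was 52 on the deposited normalised values and 5 when the Fibro groups alone were fitted. Of the 190 genes, 46 were called with any one of the 5 arrays left out (12 higher and 34 lower), and none changed direction in a fit that held it. Of the 190, 9 were not fitted without one of the uninjured arrays, because they had passed the detection filter through the uninjured Fibro arrays alone, and their calls, all lower, are not valid tests.

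Genes of surfactant and of the alveolar type 2 cell had the lowest median of all lists. Of 15 such genes measured, 9 were called lower, against 1.01% of all autosomal genes, and none was called higher. The groups did not overlap for 13 of them (86.7%, against 22.5% of all autosomal genes). The list's median log2 difference was -2.70, against -0.03 over all autosomal genes. The list held 5 calls without bleomycin replicate 1, 5 without uninjured replicate 1 and 4 without uninjured replicate 2. Without both arrays numbered 2 it held 4 calls and a median of -2.39.

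Slc34a2, the phosphate transporter of type 2 cells, read 5.31, 5.01 and 6.73 log2 units on the bleomycin arrays, against 9.54 and 10.49 on the uninjured arrays. The groups lay far apart, and Slc34a2 was 20.1-fold lower (log2 difference -4.33 ± 0.51 SE, adjusted p = 0.00118). Sftpa1, the collectin surfactant protein A, read 7.39, 6.68 and 6.75 after bleomycin, against 11.12 and 11.08 in uninjured lungs. It fell 17.9-fold (-4.16 ± 0.47, adjusted p = 0.00108), and its values within each group were close together. Both genes kept their calls with any one array left out.

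Sftpb and Sftpc are the hydrophobic surfactant proteins that spread the lipid film, and Sftpd is the second collectin. Sftpb read 8.04, 6.59 and 8.25 on the bleomycin arrays, against 11.42 and 10.36 on the uninjured arrays (9.6-fold lower, adjusted p = 0.0399). The other kept probe of Sftpb gave a log2 difference of -3.00. Sftpb lost its call with any one array left out, although its groups did not overlap. Sftpc read 11.25, 11.05 and 11.59, against 13.85 and 14.16 (6.51-fold lower, adjusted p = 0.0186), and Sftpd read 10.91, 11.09 and 11.05, against 13.52 and 13.08 (4.86-fold lower, adjusted p = 0.0318). All 4 surfactant protein genes measured were thus called lower, and each was still detected on every bleomycin array. Sftpc and Sftpd lost their calls without bleomycin replicate 1, uninjured replicate 1 or uninjured replicate 2, and Sftpd also without bleomycin replicate 3.

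Other called members are known for other tasks of the same cell. Hc, which encodes complement C5, read 5.52, 4.82 and 5.10 on the bleomycin arrays, against 9.82 and 8.51 on the uninjured arrays, and fell 16.2-fold (-4.01 ± 0.45, adjusted p = 0.00108). Scd1, a desaturase of fatty acids, read 9.30, 8.70 and 10.19, against 12.08 and 12.19 (6.68-fold lower, adjusted p = 0.0169). Lamp3, a protein of the organelle that stores surfactant, was detected on 1 of 3 bleomycin arrays and on both uninjured arrays, with 4.73, 4.25 and 4.39 against 6.37 and 6.77 (log2 difference -2.12 ± 0.24, adjusted p = 0.00108). Etv5, a transcription factor that maintains type 2 cells, was 2.76-fold lower (adjusted p = 0.018). Of these, Hc and Lamp3 kept their calls with any one array left out. Scd1 lost its call without bleomycin replicate 1 or uninjured replicate 1 or 2 (adjusted p up to 0.113) and Etv5 without bleomycin replicate 3 or uninjured replicate 2 (up to 0.149). Sftpc, Sftpd, Lamp3 and Etv5 were picked after their values were seen.

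Other members of the list were not called. Cxcl15, the chemokine lungkine of lung epithelium, read 9.39, 10.04 and 9.67 after bleomycin, against 12.36 and 13.66 in uninjured lungs (-3.31 ± 0.77, adjusted p = 0.0621), and Chil1, a chitinase-like protein, read 10.41, 8.27 and 9.79, against 12.96 and 11.96 (-2.97 ± 0.75, adjusted p = 0.0891). Neither overlapped between the groups. Abca3, the lipid pump of surfactant storage, did overlap (-1.07 ± 0.62), as did Lyz1, a lysozyme, whose representing probe differed by -0.18 while its other kept probes differed by -3.64 and -2.74. That probe of Lyz1 lay near the top of the scale on every array, at 14.54, 14.09 and 14.61 after bleomycin and 14.66 and 14.52 in uninjured lungs.

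**Figure D2:**
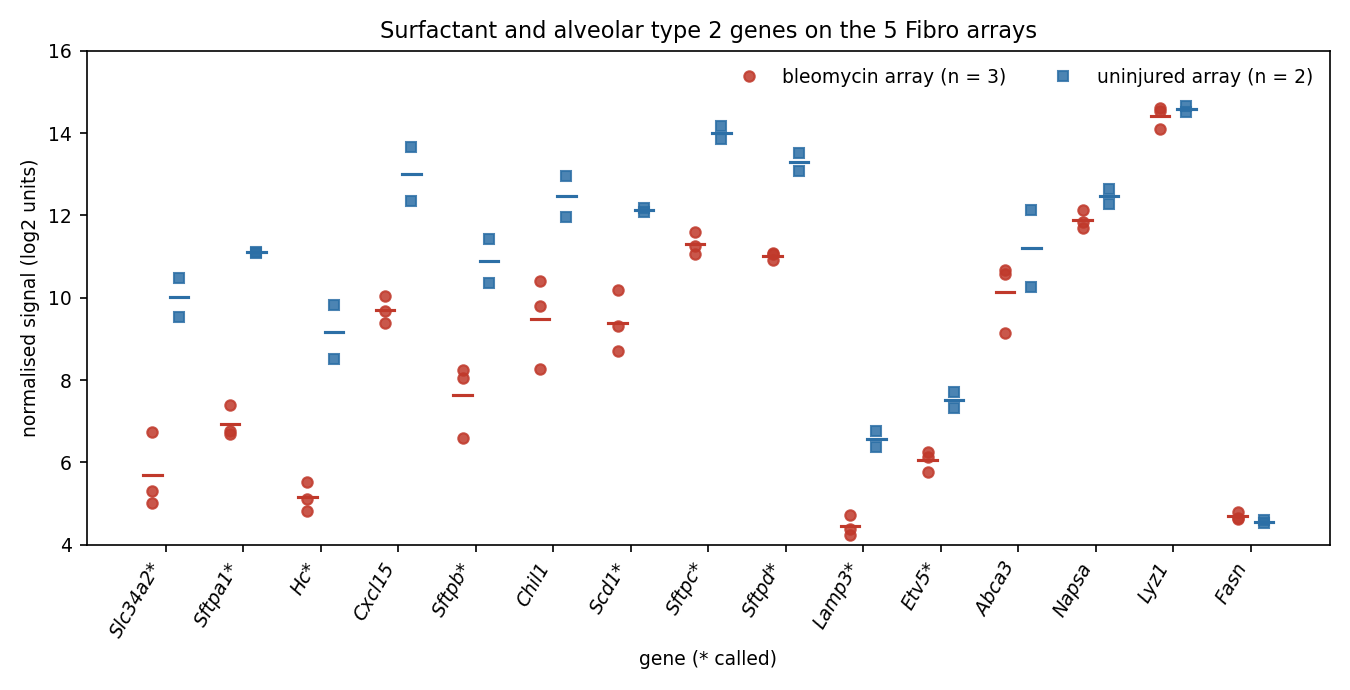
Normalised signal of the 15 surfactant and alveolar type 2 genes on each Fibro array, in log2 units, with bleomycin arrays (red circles, n = 3) left of uninjured arrays (blue squares, n = 2), bars for the group means and asterisks for called genes. The 9 called genes fell, from Slc34a2 (-4.33) to Etv5 (-1.46) in log2 difference, and the probes used for Lyz1 (-0.18) and Fasn (0.13) lay nearest to 0.

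Of the genes outside that list, Acaa1b, a thiolase of peroxisomal fatty acid breakdown, had the largest fall of any called autosomal gene: it read 4.90, 7.25 and 5.69 on the bleomycin arrays, against 11.24 and 10.40 on the uninjured arrays, 29.3-fold lower (-4.87 ± 0.74, adjusted p = 0.00668). Bleomycin replicate 2 stood highest of its group, and the call was lost without uninjured replicate 1. Lgi3, a secreted protein with leucine-rich repeats, read 5.61, 4.75 and 5.24, against 10.18 and 9.19 (22.4-fold lower, adjusted p = 0.000279). Pla2g1b, a secreted phospholipase, read 5.10, 5.12 and 5.89, against 9.53 and 9.70 (19-fold lower, adjusted p = 0.000102). In both, the bleomycin arrays lay low and well apart from the uninjured arrays.

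Atp6v1c2, a subunit of the proton pump, gave the smallest adjusted p among the lower autosomal genes: 5.05, 5.06 and 4.79 on the bleomycin arrays, against 8.30 and 8.11 on the uninjured arrays (9.45-fold lower, adjusted p = 1.89e-05). Its second kept probe moved less, by -1.46. Acoxl, a relative of the acyl-CoA oxidases, read 5.27, 4.50 and 5.14, against 9.07 and 8.36 (13.4-fold lower). Npw, the peptide neuropeptide W, read 4.96, 5.32 and 5.23, against 8.01 and 9.34 (11.3-fold lower), and Scgb1c1, a secretoglobin, read 5.22, 4.62 and 5.80, against 8.28 and 10.04 (15.4-fold lower). These 4 genes and Lgi3 and Pla2g1b kept their calls with any one array left out.

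Among the other genes that fell by 3 log2 units or more, Chia1 is an acidic chitinase (10.9-fold lower), Cidec a protein of lipid droplets (10.1-fold), Pon1 a lactonase (8.39-fold), Itih4 an acute phase protein (8.08-fold) and Smim6 a small membrane protein (8.77-fold). Smim6 read 5.91, 5.85 and 5.90 after bleomycin, against 7.86 and 10.18, so the bleomycin arrays were close together and the uninjured arrays were not, and it kept its call with any one array left out. Lpcat1, which makes the main phospholipid of surfactant, was 4.27-fold lower (adjusted p = 0.0318). Acta1, the actin of skeletal muscle, was detected on no bleomycin array and on both uninjured arrays and was at least 6.43-fold lower (adjusted p = 0.0318). Skeletal muscle markers, of which Acta1 is 1 of 7, summed to 341 to 1270 on the bleomycin arrays, against 650 and 2310 on the uninjured arrays, and their part in the Acta1 value was not tested. Chia1 lost its call without uninjured replicate 2 (adjusted p up to 0.102), Cidec without uninjured replicate 1 or 2 (up to 0.113), Pon1 without uninjured replicate 2 (up to 0.0908), Itih4 without bleomycin replicate 1 or 3 or uninjured replicate 1 (up to 0.196), Lpcat1 without bleomycin replicate 1 or uninjured replicate 1 or 2 (up to 0.186) and Acta1 without bleomycin replicate 1 or 3 or uninjured replicate 2 (up to 0.212).

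The promoter of Sftpb held the letters TGANTCA, the core that AP-1 proteins bind. Its 250 bases before the start of transcription are shown for that (RefSeq, GRCm38.p6, plus strand, chr6:72304360-72304609, with the match in capitals, 18 bases before the start).
Sftpb: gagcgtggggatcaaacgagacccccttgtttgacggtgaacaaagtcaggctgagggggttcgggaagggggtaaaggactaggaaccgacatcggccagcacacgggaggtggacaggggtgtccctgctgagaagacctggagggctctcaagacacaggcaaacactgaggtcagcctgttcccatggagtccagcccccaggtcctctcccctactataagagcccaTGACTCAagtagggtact

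Of the iroquois transcription factors, a family picked after its values were seen, Irx2, Irx3 and Irx5 were called lower. Irx2 read 4.94, 4.30 and 5.17 on the bleomycin arrays, against 8.15 and 7.46 on the uninjured arrays (8.01-fold lower, adjusted p = 0.00043), Irx3 was 4.62-fold and Irx5 4.49-fold lower. Irx1, the fourth one measured, was detected on the uninjured Fibro arrays and on none of the other arrays of the series, so its difference could only be negative and is no test, although it is among the 122. Irx2 and Irx5 kept their calls with any one Fibro array left out. Irx3 lost its call without bleomycin replicate 3 or uninjured replicate 1 or 2 (adjusted p up to 0.147). Elf5, a factor of epithelial progenitors, was like Irx1 detected on the uninjured Fibro arrays alone, with 4.32, 4.33 and 4.48 on the bleomycin arrays, against 5.57 and 7.15 on the uninjured arrays. Foxa1, which opens chromatin at endodermal genes, read 5.08, 4.84 and 5.37, against 6.68 and 6.48 (2.8-fold lower, adjusted p = 0.00794). Foxa1 lost its call without uninjured replicate 1 (adjusted p up to 0.0746). Of 22 Hox genes measured, Hoxa4 (2.45-fold) and Hoxb5 (2.4-fold) were called lower, against 1.01% of all genes, and none was called higher. Hoxa4 lost its call without uninjured replicate 1 (adjusted p up to 0.0863) and Hoxb5 without bleomycin replicate 1 or uninjured replicate 1 or 2 (up to 0.117). Elf5, Foxa1 and the Hox genes, too, were picked after their values were seen.

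Growth factor signalling held 2 calls among 28 genes of the PDGF, FGF, Wnt and Hedgehog pathways, both lower. Over all genes 1.01% were called lower. Fgfr2, the receptor through which Fgf7 and Fgf10 act on epithelium, read 7.70, 7.20 and 7.53 on the bleomycin arrays, against 10.55 and 10.06 on the uninjured arrays (7.1-fold lower, adjusted p = 0.00559), while its second kept probe differed by -0.49. Smo, the signalling receptor of the Hedgehog pathway, read 5.42, 6.13 and 5.91, against 7.47 and 6.83 (2.51-fold lower, adjusted p = 0.0317), while its other kept probes differed by -0.01 and 0.10. Fgfr2 lost its call without uninjured replicate 1 (adjusted p up to 0.0516) and Smo without bleomycin replicate 1 or 3 or uninjured replicate 1 (up to 0.217). Pdgfa, a ligand, read 9.40, 9.19 and 9.38, against 8.48 and 8.05 (1.05 ± 0.28, adjusted p = 0.104), without overlap and without a call. The receptors Pdgfra (0.05 ± 0.44) and Pdgfrb (-0.40 ± 0.48) were not called.

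Arg1 rose most. This arginase, the best known product of macrophages exposed to IL-4 or IL-13, read 11.18, 11.09 and 11.19 log2 units on the bleomycin arrays, against 5.58 and 6.20 on the uninjured arrays. It rose 38.3-fold (5.26 ± 0.30 in log2, adjusted p = 8.87e-06), the smallest adjusted p of any autosomal gene, and the 3 bleomycin arrays were close together. Its second probe gave 5.10. Ccl24, an eotaxin that attracts eosinophils, read 9.04, 8.48 and 10.59, against 5.15 and 5.17 (18.5-fold higher, adjusted p = 0.00135). Both kept their calls with any one array left out.

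Of 25 genes that respond to IL-4 and IL-13, 3 were called higher, against 0.565% of all genes, and none lower. They were Arg1, Ccl24 and Mgl2, a lectin of macrophages and dendritic cells (4.23-fold, adjusted p = 0.021). The list's median was 0.73, and 6 of its genes were called higher without bleomycin replicate 1. Mgl2 lost its call without bleomycin replicate 3 or uninjured replicate 1 or 2 (adjusted p up to 0.116). Other well known members were not called. Chil3 read 12.04, 12.24 and 12.09 on the bleomycin arrays, against 13.51 and 12.98 on the uninjured arrays (-1.12 ± 0.44, adjusted p = 0.288), Mrc1, the mannose receptor, read 9.64, 10.78 and 9.98, against 10.94 and 10.79 (-0.73 ± 0.73), and Retnla read 9.54, 11.71 and 12.18, against 9.99 and 10.17 (1.06 ± 0.93). Chil3 and Mrc1 are also markers of alveolar macrophages. In that list of 11, Cidec was called lower, none was called higher and the median was -1.12. Krt79, a keratin of those cells, read 5.48, 8.32 and 6.26, against 10.80 and 10.33 (-3.88 ± 0.89, adjusted p = 0.0582).

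Of 16 genes of monocyte chemokines and their receptors 3 were called higher, against 0.565% of all genes, and none lower. The list's median was 1.72, with 14 genes above 0 and 2 below. Ccl2, the main ligand of the receptor Ccr2, read 8.74, 9.51 and 8.07 on the bleomycin arrays, against 5.38 and 5.91 on the uninjured arrays (8.73-fold higher, adjusted p = 0.0377). Ccl7, a second ligand of Ccr2, read 11.26, 11.51 and 10.34, against 8.22 and 7.83 (8.09-fold higher, adjusted p = 0.0135), and its second probe gave 2.85. Neither gene overlapped between the groups. The third was Ccl24. Without bleomycin replicate 1, uninjured replicate 1 or uninjured replicate 2, 1 of the 3 calls was left. Ccl2 lost its call without bleomycin replicate 1 or 2 or uninjured replicate 1 or 2 (adjusted p up to 0.192), Ccl7 without bleomycin replicate 1 or uninjured replicate 1 or 2 (up to 0.113) and Cxcl16 without bleomycin replicate 1 or 3 or uninjured replicate 1 or 2 (up to 0.152). Ccr2 itself, a receptor of monocytes, read 7.69, 9.17 and 7.55, against 5.26 and 6.37 (2.32 ± 0.64, adjusted p = 0.113), and Ccl12 10.99, 11.30 and 10.01, against 8.89 and 8.45 (2.10 ± 0.56, adjusted p = 0.105). Ccl8 was above both uninjured values on each bleomycin array but ran from 7.36 to 12.91, against 6.14 and 6.84 (adjusted p = 0.377). Cxcl16, a scavenger receptor and chemokine in one molecule, was 3.6-fold higher (adjusted p = 0.0281), the only call among 21 homeostatic and lymphocyte chemokine genes.

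**Figure D3:**
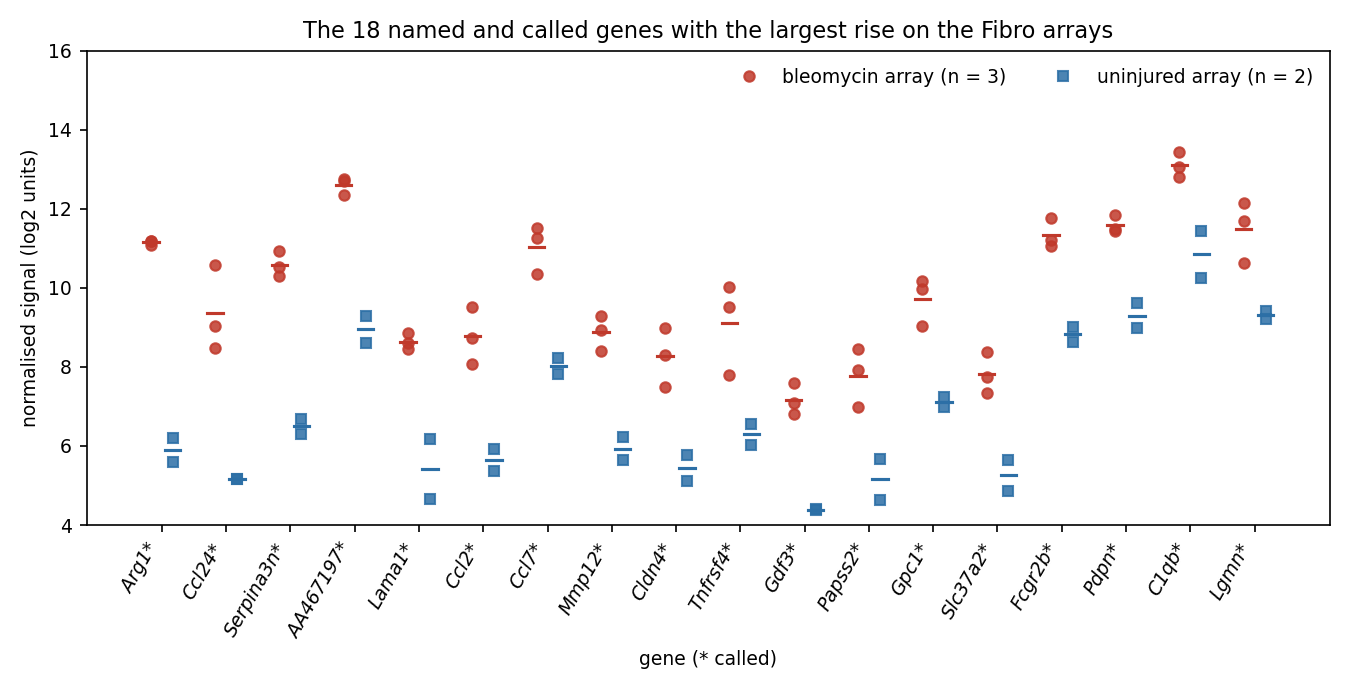
Normalised signal on each Fibro array, in log2 units, of the 18 named and called genes with the largest rise, bleomycin arrays (red circles, n = 3) left of uninjured arrays (blue squares, n = 2), with bars for group means. No gene overlaps between the groups, and Arg1 has the largest gap and the tightest bleomycin values.

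Mmp12, the elastase of macrophages, read 8.39, 9.28 and 8.95 on the bleomycin arrays, against 5.64 and 6.22 on the uninjured arrays (7.68-fold higher, 2.94 ± 0.46, adjusted p = 0.00767). It was the only call among 24 metalloproteinases and inhibitors, where 1.58% of all genes were called. Gpnmb, a glycoprotein of macrophages that take up debris, averaged 12.60 ± 0.53 on the bleomycin arrays (SD, n = 3), against 10.91 ± 0.13 on the uninjured arrays (SD, n = 2). The groups did not overlap (3.23-fold higher, adjusted p = 0.0476), while the other kept probes of Gpnmb gave log2 differences of 0.51 to 2.5. With Mmp12, Gpnmb made up the 2 calls among 21 genes of lipid-handling and scar-associated macrophages, whose median was 1.01. Trem2, a lipid receptor on that list, read 10.87, 12.04 and 10.89, against 8.25 and 9.23 (2.53 ± 0.57, adjusted p = 0.0518), close to the threshold. Mmp12 lost its call without uninjured replicate 1 (adjusted p up to 0.0746) and Gpnmb without bleomycin replicate 1 or 3 or uninjured replicate 1 or 2 (up to 0.203).

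C1qb, a chain of the complement starter C1q, read 13.05, 13.45 and 12.81 after bleomycin, against 11.45 and 10.24 in uninjured lungs (4.79-fold higher, adjusted p = 0.0481). Its partner chains C1qa (2.07 ± 0.50, adjusted p = 0.0697) and C1qc (1.97 ± 0.53, adjusted p = 0.109) were not called, and none of the 3 chains overlapped between the groups. Fcgr2b, the inhibitory Fc receptor, read 11.77, 11.05 and 11.22, against 9.02 and 8.64 (5.74-fold higher, adjusted p = 0.0131), although 1 of its other probes gave -0.18. Tlr1, a receptor for bacterial lipoproteins, was detected on 3 of 3 bleomycin arrays and 1 of 2 uninjured arrays and read 7.28, 6.56 and 6.83, against 5.23 and 4.58 (3.96-fold higher, adjusted p = 0.00559). Fcgr2b and Tlr1 were the 2 calls among 28 Toll-like receptor, Fc receptor and ITAM adaptor genes. Among 22 complement genes C1qb was called higher and Hc lower. Over all genes 1.58% were called. C1qb lost its call without bleomycin replicate 1, 2 or 3 or uninjured replicate 2 (adjusted p up to 0.27), Fcgr2b without bleomycin replicate 1 or uninjured replicate 1 or 2 (up to 0.113) and Tlr1 without uninjured replicate 2 (up to 0.0716).

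Lgmn, a protease of the lysosome, was 4.55-fold higher (adjusted p = 0.0131) and the only call among 26 lysosomal genes. Over all genes 1.58% were called. Ifi30, a reductase that prepares antigens for MHC class II, was 3.48-fold higher (adjusted p = 0.0186). It was the only call among 15 class II genes, yet all 15 had a positive difference (median 1.17) and 10 did not overlap (66.7%, against 22.5% of all genes). The summed dendritic cell signals given above were also higher on every bleomycin array, and their part in these values was not tested. The dendritic cell list was drawn up with H2-Ab1, itself a class II gene, so it is not fully separate from these genes. The medians of that list overlapped, at 7.41, 7.19 and 8.29 log2 units on the bleomycin arrays, against 6.87 and 7.25 on the uninjured arrays. Slc37a2, a sugar phosphate transporter of macrophages, read 8.38, 7.75 and 7.33, against 5.65 and 4.86 (5.91-fold higher, adjusted p = 0.00274), and kept its call with any one array left out. Of 20 markers of interstitial and monocyte-derived macrophages C1qb alone was called, with a list median of 1.82. Lgmn lost its call without uninjured replicate 1 or 2 (adjusted p up to 0.093) and Ifi30 without bleomycin replicate 1 or 3 or uninjured replicate 1 or 2 (up to 0.136). The summed signals of that list, given above, were higher on all 3 bleomycin arrays, and their part in the rise of each of these genes was not tested.

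Receptors of the TNF receptor superfamily were called higher in 4 of 18 cases, against 0.565% of all genes, and lower in none. The family was counted after its values were seen. Tnfrsf4, the costimulatory receptor OX40, read 9.52, 7.80 and 10.01 on the bleomycin arrays, against 6.57 and 6.02 on the uninjured arrays (7.04-fold higher, adjusted p = 0.0252). Tnfrsf18, known as GITR, was 3.8-fold, Tnfrsf11a, known as RANK, 2.9-fold and Tnfrsf13b, known as TACI, 2.19-fold higher. The last 3 were picked after their values were seen. Tnfrsf4 lost its call without bleomycin replicate 1 or 3 or uninjured replicate 1 or 2 (adjusted p up to 0.161), Tnfrsf18 without bleomycin replicate 1 or 3 or uninjured replicate 1 or 2 (up to 0.261), Tnfrsf11a without bleomycin replicate 1 or 2 or uninjured replicate 1 or 2 (up to 0.183) and Tnfrsf13b without bleomycin replicate 1 or 3 or uninjured replicate 1 or 2 (up to 0.155). T and NK cell markers summed to 2240 to 6830 on the bleomycin arrays and to 3160 and 4140 on the uninjured arrays, with bleomycin replicate 2 the lowest of all 5, as it was for Tnfrsf4 among the bleomycin arrays, and their part in these values was not tested.

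Serpina3n, a protease inhibitor of the acute phase, read 10.54, 10.29 and 10.93 after bleomycin, against 6.68 and 6.30 in uninjured lungs (17.1-fold higher, 4.09 ± 0.59, adjusted p = 0.00509). AA467197, which encodes a small mitochondrial protein, read 12.76, 12.71 and 12.34, against 8.60 and 9.30 (12.6-fold higher, adjusted p = 0.00108). Gdf3, a ligand of the TGF-beta family, read 7.09, 7.58 and 6.82, against 4.37 and 4.41. It was detected on every bleomycin array and on no uninjured array, and was at least 5.2-fold higher (adjusted p = 0.000279). Gdf3 and AA467197 kept their calls with any one array left out, and Serpina3n lost its call without uninjured replicate 2 (adjusted p = 0.0517). Among 23 acute phase genes Serpina3n was called higher and Itih4 lower, where 1.58% of all genes were called.

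Lama1, the laminin chain of early basement membranes, read 8.44, 8.60 and 8.86 on the bleomycin arrays, against 6.17 and 4.67 on the uninjured arrays (9.28-fold higher, 3.21 ± 0.48, adjusted p = 0.00559), the only call among 16 basement membrane genes. The uninjured arrays differed from each other, and the call was lost without the lower one, replicate 2. Gpc1, a heparan sulfate proteoglycan, read 10.18, 9.02 and 9.96, against 7.23 and 6.98 (6.14-fold higher, adjusted p = 0.00254), and Papss2, which makes the sulfate donor for such chains, read 8.44, 6.99 and 7.92, against 5.67 and 4.64 (6.18-fold higher, adjusted p = 0.0114) with a second probe at 0.27. Pdpn, a mucin-like protein of alveolar type 1 cells, lymphatic endothelium and activated fibroblasts, was 4.88-fold higher (adjusted p = 0.0242). It was the only call among 11 alveolar type 1 genes and among 9 lymphatic genes. Igfbp2, a binding protein of insulin-like growth factors, was 3.59-fold higher (adjusted p = 0.043) while 7 of the 10 genes of its list had a negative difference. Papss2 lost its call without uninjured replicate 2 (adjusted p up to 0.116), Pdpn without bleomycin replicate 1 or 3 or uninjured replicate 1 or 2 (up to 0.171) and Igfbp2 without bleomycin replicate 1 or 3 or uninjured replicate 1 or 2 (up to 0.251).

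A pair of claudins, sealing proteins of epithelial junctions, moved in opposite directions. Cldn4 read 7.50, 8.31 and 8.99 on the bleomycin arrays, against 5.78 and 5.11 on the uninjured arrays (7.08-fold higher, adjusted p = 0.0104). Cldn3 read 5.73, 6.61 and 7.00, against 8.79 and 9.71 (6.99-fold lower, adjusted p = 0.00668). Neither gene overlapped between the groups, both lost their calls without uninjured replicate 2 (adjusted p = 0.113 for Cldn4 and 0.0881 for Cldn3), and Cldn3 was picked after its values were seen. Of the 11 other claudins measured none was called, among them Cldn18 (-0.42 ± 0.42), the claudin of the alveolar epithelium, and Cldn5 (-0.50 ± 0.40), that of endothelium. Among keratins, Krt7 read 8.24, 7.31 and 8.68, against 6.45 and 7.02, and Krt19 6.03, 7.69 and 7.15, against 8.51 and 9.01, without overlap and without a call, while Krt8 overlapped (0.78 ± 0.44).

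Genes of fibrous matrix were not called in either direction. None of 9 fibrillar collagens (median 0.05), 16 other collagens (0.01), 24 collagen-processing genes (0.11), 13 elastic fibre genes (-0.21) or 11 proteoglycan and hyaluronan genes (-0.02) passed the test. Over all genes only 1.58% were called, and at that share lists this short would hold few calls or none. Col1a1 differed by 0.71 ± 0.59 (95% interval -0.57 to 2.00, adjusted p = 0.743), Col3a1 by 0.05 ± 0.80 (-1.69 to 1.80) and Col5a1 by 0.67 ± 0.53 (-0.50 to 1.84). Each of these intervals includes no change and also a 2-fold rise. All 3 genes overlapped between the groups.

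Contractile genes gave no call among 18 (median 0.24), where 1.58% of all genes were called. Acta2, the smooth muscle actin by which myofibroblasts are recognised, averaged 11.01 ± 0.15 on the bleomycin arrays (SD, n = 3), against 10.58 ± 0.16 on the uninjured arrays (SD, n = 2). The groups did not overlap, but the difference was small, 0.43 ± 0.43 (adjusted p = 0.81), and its 3 other probes gave 0.42 to 0.66. That SE draws on the spread of every sorted group, with an SD of 0.949 in uninjured PeriFibro cells. Tagln, another gene of contractile cells, was detected on 2 of 3 bleomycin arrays and 1 of 2 uninjured arrays.

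Matricellular proteins, which modulate how cells meet the matrix, also gave no call among 15, although 8 of them (53.3%, against 22.5% of all genes) did not overlap. Fn1, fibronectin, read 10.43, 7.84 and 8.48 after bleomycin, against 6.52 and 4.87 in uninjured lungs (3.22 ± 0.80, adjusted p = 0.0822), with a wide spread in both groups and 0.93 on its second probe. Tnc read 5.48, 6.17 and 5.74, against 4.45 and 4.48, and Thbs1 6.96, 5.34 and 5.30, against 4.28 and 4.28. Both were detected on every bleomycin array and on no uninjured array (adjusted p = 0.142 for Tnc and 0.33 for Thbs1). Cthrc1, a secreted protein of activated fibroblasts, was detected on no bleomycin array and on both uninjured arrays, at 4.30, 4.80 and 4.46, against 5.57 and 6.28 (adjusted p = 0.0545). Among 23 genes of TGF-beta and activin signalling none was called. Inhba, which encodes the activin A subunit, read 10.27, 5.95 and 8.65, against 5.85 and 4.64 (3.04 ± 0.96, adjusted p = 0.175), with a wide spread within the bleomycin group. The 14 genes of alveolar fibroblasts and lipofibroblasts had a median of -0.74 and no call, and 12 of them were below 0.

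**Figure D4:**
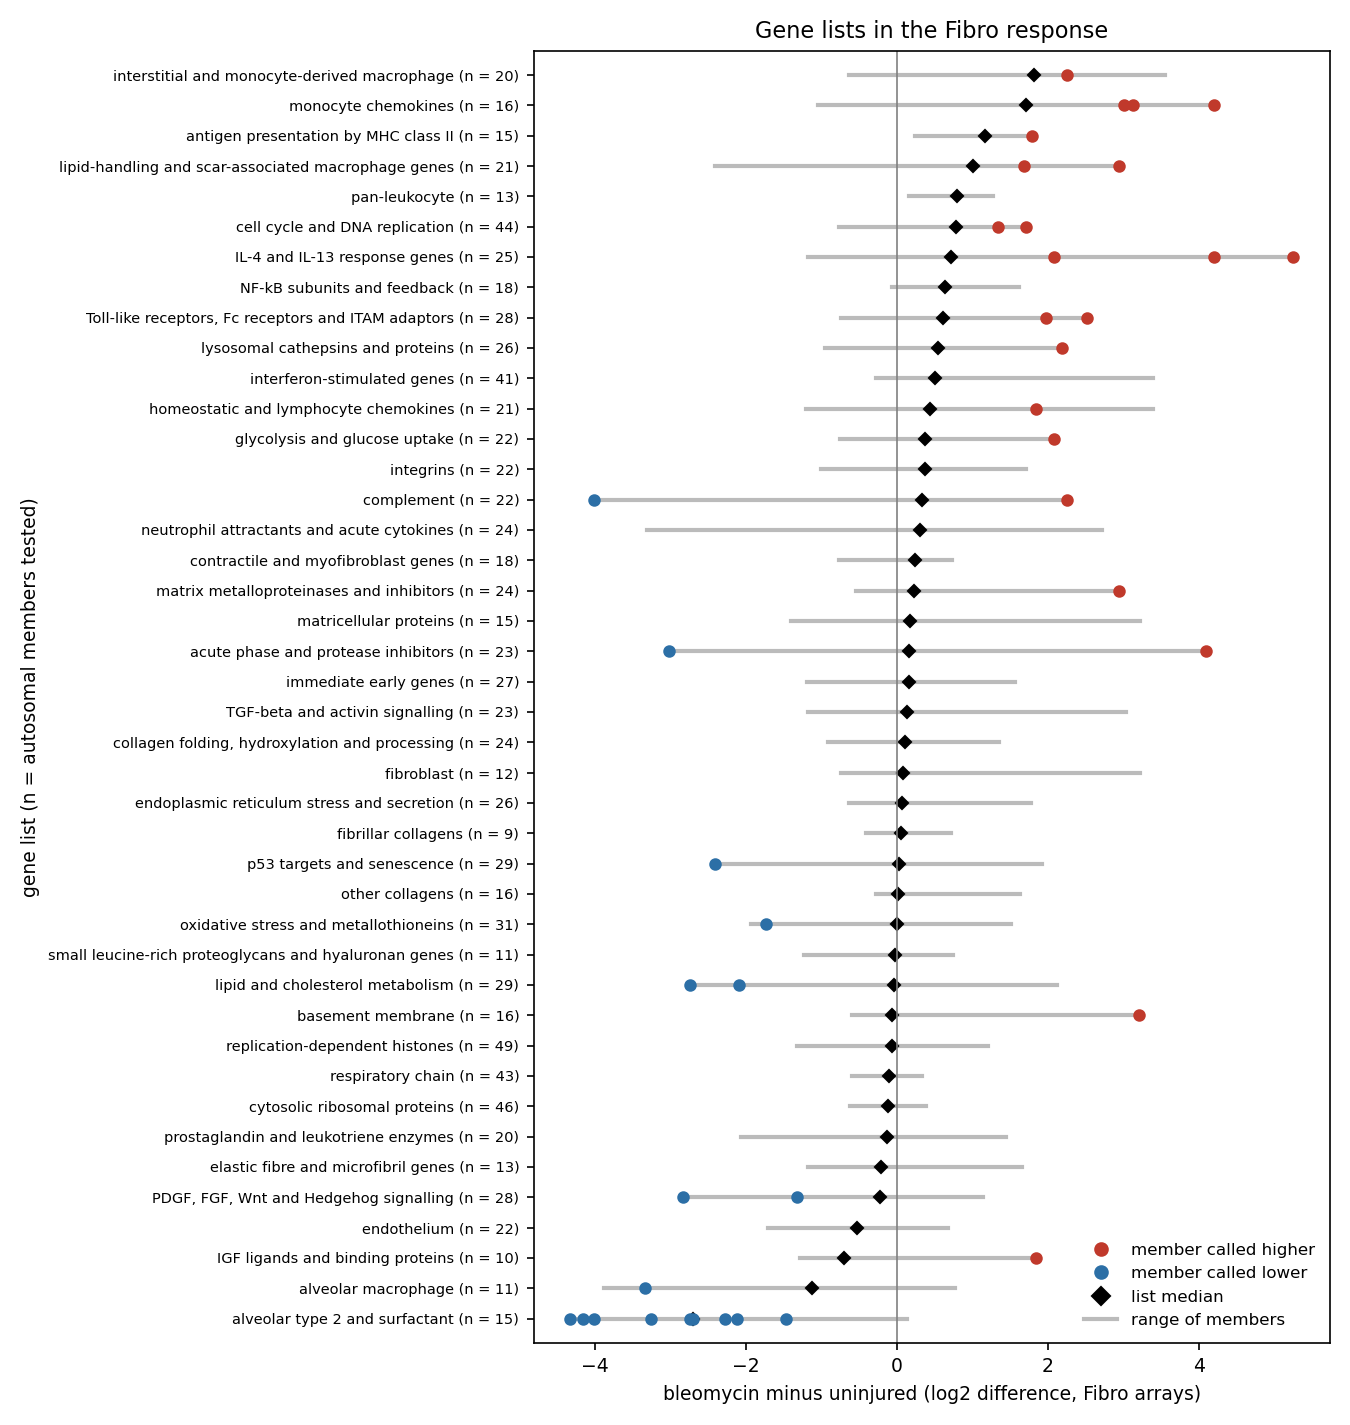
Log2 difference, bleomycin minus uninjured, of the autosomal members of each gene list on the Fibro arrays. Grey lines span the members, black diamonds mark list medians, and red and blue dots mark members called higher and lower. The alveolar type 2 list stands lowest with 9 calls, and the collagen, contractile and matricellular lists hold no dot. Over all autosomal genes 1.58% were called.

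Proliferation and metabolism changed in few members. In the list of cell cycle and DNA replication genes 37 of 44 had a positive difference (median 0.79) and 19 did not overlap (43.2%, against 22.5% of all genes). The calls were Uhrf1, which keeps DNA methylation through replication (7.94, 8.63 and 8.67 on the bleomycin arrays, against 6.42 and 6.98 on the uninjured arrays, adjusted p = 0.0149), and Plk1, a mitotic kinase (6.50, 7.28 and 6.84, against 5.90 and 5.15, adjusted p = 0.0472). Over all genes 0.565% were called higher and 1.58% called in either direction. Replication-dependent histones had 0 of 49 called and a median of -0.06, and the 2 lists were not tested against each other. Slc2a1, the glucose transporter GLUT1, read 10.77, 9.54 and 9.85, against 8.09 and 7.85 (4.25-fold higher, adjusted p = 0.0152), the only call among 22 genes of glycolysis and glucose uptake. Scd1 and Lpcat1, both lower, were the calls among 29 lipid and cholesterol genes, where 1.01% of all genes were called lower. Uhrf1 lost its call without bleomycin replicate 3 or uninjured replicate 1 (adjusted p up to 0.132), Plk1 without bleomycin replicate 1, 2 or 3 or uninjured replicate 2 (up to 0.267) and Slc2a1 without uninjured replicate 1 or 2 (up to 0.114).

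The stress lists with a call held 1 each, both lower, where 1.01% of all genes were called lower. Rprm, a p53 target that halts the cell cycle, read 5.13, 4.71 and 5.28 after bleomycin, against 6.91 and 7.98 in uninjured lungs (5.29-fold lower, adjusted p = 0.00145), alone among 29 p53 and senescence genes. Cdkn1a, the best known p53 target, read 12.09, 11.03 and 11.64, against 10.68 and 10.22 (1.14 ± 0.40, adjusted p = 0.224), without overlap. Gsta4, a glutathione transferase for products of lipid oxidation, was 3.32-fold lower (adjusted p = 0.00627), alone among 31 genes of oxidative stress, and lost its call without uninjured replicate 2 (adjusted p = 0.0832). Rprm kept its call with any one array left out. No gene was called among 41 interferon-stimulated genes (median 0.51), 24 neutrophil attractants and acute cytokines (0.31), 18 NF-kB genes (0.64), 43 respiratory chain genes (-0.10) or 46 cytosolic ribosomal protein genes (-0.12). Over all genes only 1.58% were called. Cxcl10, an interferon-induced chemokine, read 10.85, 7.24 and 7.87, against 6.01 and 4.49, and Cxcl2, which draws neutrophils, 11.82, 11.08 and 11.51, against 8.61 and 9.99 (adjusted p = 0.277 and 0.198). Il6 overlapped (0.15 ± 0.47) and Tnf did not (1.34 ± 0.80, adjusted p = 0.561).

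The promoters of the called genes were searched for letters bound by AP-1 (TGANTCA), by STAT proteins (TTC and GAA with 4 unspecified bases between them) and by NF-Y (CCAAT), on both strands of a window from 250 bases before to 50 after each RefSeq start. Of the 68 genes called higher 48 matched by symbol, with 62 promoters, and of the 122 called lower 93 matched, with 114 promoters. TGANTCA stood in 9 promoters of higher genes (14.5%) and in 5 of lower genes (4.39%), against 5.8% for all autosomal genes tested and 7.81% of all promoters in the table. The STAT letters stood in 4.84% of promoters of higher genes and 3.51% of those of lower genes, against 5.38% for genes tested and 6.95% for all promoters. CCAAT stood in 35.5% for higher and 32.5% for lower genes, against 36.8% for genes tested and 37.4% for all promoters. TGANTCA and the STAT letters read the same on both strands, and a match is a description of letters only.

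Promoters of 3 higher genes with TGANTCA are shown for where the letters lie, each as the 250 bases before the start, 5′ to 3′ on the gene's strand, with the matches in capitals (RefSeq, GRCm38.p6). Mmp12 (chr9:7347124-7347373, plus strand, 1 of its 2 promoters) holds them 44 bases before the start, Cldn4 (chr5:134946935-134947184, minus strand) 240 and 158 bases before it, and Slc37a2 (chr9:37255739-37255988, minus strand) 107 bases before it.
Mmp12: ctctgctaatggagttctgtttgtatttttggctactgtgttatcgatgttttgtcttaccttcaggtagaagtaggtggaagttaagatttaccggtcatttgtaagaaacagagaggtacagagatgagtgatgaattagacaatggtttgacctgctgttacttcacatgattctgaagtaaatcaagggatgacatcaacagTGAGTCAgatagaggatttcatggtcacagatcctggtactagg
Cldn4: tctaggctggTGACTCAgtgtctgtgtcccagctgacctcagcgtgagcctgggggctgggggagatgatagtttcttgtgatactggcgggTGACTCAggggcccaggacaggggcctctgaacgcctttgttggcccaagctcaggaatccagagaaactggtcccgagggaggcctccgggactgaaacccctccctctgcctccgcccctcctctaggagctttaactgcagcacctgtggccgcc
Slc37a2: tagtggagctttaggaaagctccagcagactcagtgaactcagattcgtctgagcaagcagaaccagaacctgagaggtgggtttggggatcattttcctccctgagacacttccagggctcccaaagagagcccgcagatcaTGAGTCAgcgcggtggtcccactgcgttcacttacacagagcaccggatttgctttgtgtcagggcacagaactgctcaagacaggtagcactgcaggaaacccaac

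Whether the response differed from that of the other sorted populations was tested as a difference of responses in the same limma fit. Against PeriFibro cells 15 autosomal genes differed (0.125%), 1 with a more positive response in Fibro cells and 14 with a more negative one. Against Peri cells 57 differed (0.473%), 7 more positive and 50 more negative. Leaving out single arrays moved the first count to 9 without bleomycin replicate 1 and to 34 without uninjured replicate 1, and the second to 23, 24 and 26 without bleomycin replicate 1, bleomycin replicate 3 and uninjured replicate 2. Scaling to a common median left 5 in each. The 122 genes called lower in Fibro cells had a median log2 difference of -1.99 there, -0.12 in PeriFibro cells and 0.11 in Peri cells, where the first of these values describes how the genes were chosen. The difference of responses was called for 13 of them against PeriFibro and for 39 against Peri, and since these counts use the Fibro values by which the genes were chosen they are a description only. Of the 122, 27 were detected on at most 1 PeriFibro array and 65 on at most 1 Peri array, where a fall could hardly be measured. The 68 higher genes had medians of 2.00 in Fibro, 1.25 in PeriFibro and 0.58 in Peri cells, and the difference was called for 1 of them against PeriFibro and 7 against Peri, a description for the same reason.

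Pla2g1b was called in both tests. Its mean was 5.37 in Fibro cells after bleomycin and 9.62 in uninjured Fibro cells, while it was 4.66 and 4.61 in PeriFibro and 4.34 and 4.71 in Peri cells. The Fibro response differed from that of PeriFibro cells by -4.29 ± 0.47 (adjusted p = 0.00575) and from that of Peri cells by -3.87 ± 0.49 (adjusted p = 0.0102). Lgi3, Acoxl, Npw, Scgb1c1 and Atp6v1c2 were likewise called in both tests. In both other populations, with or without bleomycin, the means of these 6 genes lay between 4.28 and 5.14 log2 units, at or near the detection limit of 4.66 to 4.82. At that level they could hardly fall, so the differences reflect the level in uninjured Fibro cells and do not show how the other populations responded.

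Slc34a2 and Sftpa1 differed from Peri cells (adjusted p = 0.0245 and 0.0245) but not by the test from PeriFibro cells (adjusted p = 0.0552 and 0.0787). Slc34a2 was near the detection limit in Peri cells, at 4.67 after bleomycin and 4.41 in uninjured lungs. In PeriFibro cells Slc34a2 averaged 4.98 after bleomycin and 5.22 in uninjured lungs, and in Peri cells Sftpa1 averaged 5.05 and 4.97. These levels, too, lie near that limit, where a fall could hardly be measured. Sftpa1 averaged 6.94 after bleomycin and 11.10 in uninjured lungs in Fibro cells, against 5.41 and 6.05 in PeriFibro cells. For Sftpc the PeriFibro response was -0.04 and the Peri response -0.12, and neither difference was called (adjusted p = 0.409 against PeriFibro and 0.207 against Peri). The response of Acaa1b differed from that in Peri cells by -6.07 ± 1.10 (adjusted p = 0.0391). In Peri cells Acaa1b was detected on 1 of 4 arrays and averaged 4.40 in uninjured lungs, so a fall could hardly be measured there. In PeriFibro cells Acaa1b too had a negative response, -2.61, that was not called.

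Gdf3 was the one gene whose response was more positive than in PeriFibro cells (2.25 ± 0.37, adjusted p = 0.0489), and it was also more positive than in Peri cells (2.60 ± 0.38, adjusted p = 0.0188). The first of these calls was close to the threshold and held in 6 of 19 alternatives, with the adjusted p at 0.11 without bleomycin replicate 1, 0.0553 without bleomycin replicate 2, 0.0909 without uninjured replicate 1 and 0.139 without uninjured replicate 2. Tlr1, too, differed from Peri cells (2.90 ± 0.43, adjusted p = 0.02). Arg1, Serpina3n, AA467197, Lama1 and Mmp12 were called higher in PeriFibro cells as well, with log2 differences of 3.83, 4.06, 3.81, 3.21 and 2.96 there. For these 5 genes the difference of responses was not called, and for Lama1 it was 0.00 ± 0.67. Gpnmb rose less in Fibro than in Peri cells (difference -4.10 ± 0.55, adjusted p = 0.0112), having averaged 12.60 and 10.91 in bleomycin and uninjured Fibro cells and 11.82 and 6.03 in Peri cells. Gsta4, Rprm and Hc responded more negatively in Fibro than in Peri cells (adjusted p = 0.0327, 0.0378 and 0.0327). In Peri cells Rprm was detected on 0 of 4 arrays and Hc on 2 of 4, so a fall of either could hardly be measured there. Gsta4 was detected on 3 of 4 Peri arrays. It averaged 4.89 in uninjured Peri cells, near the detection limit, so it, too, could hardly fall there.

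**Figure D5:**
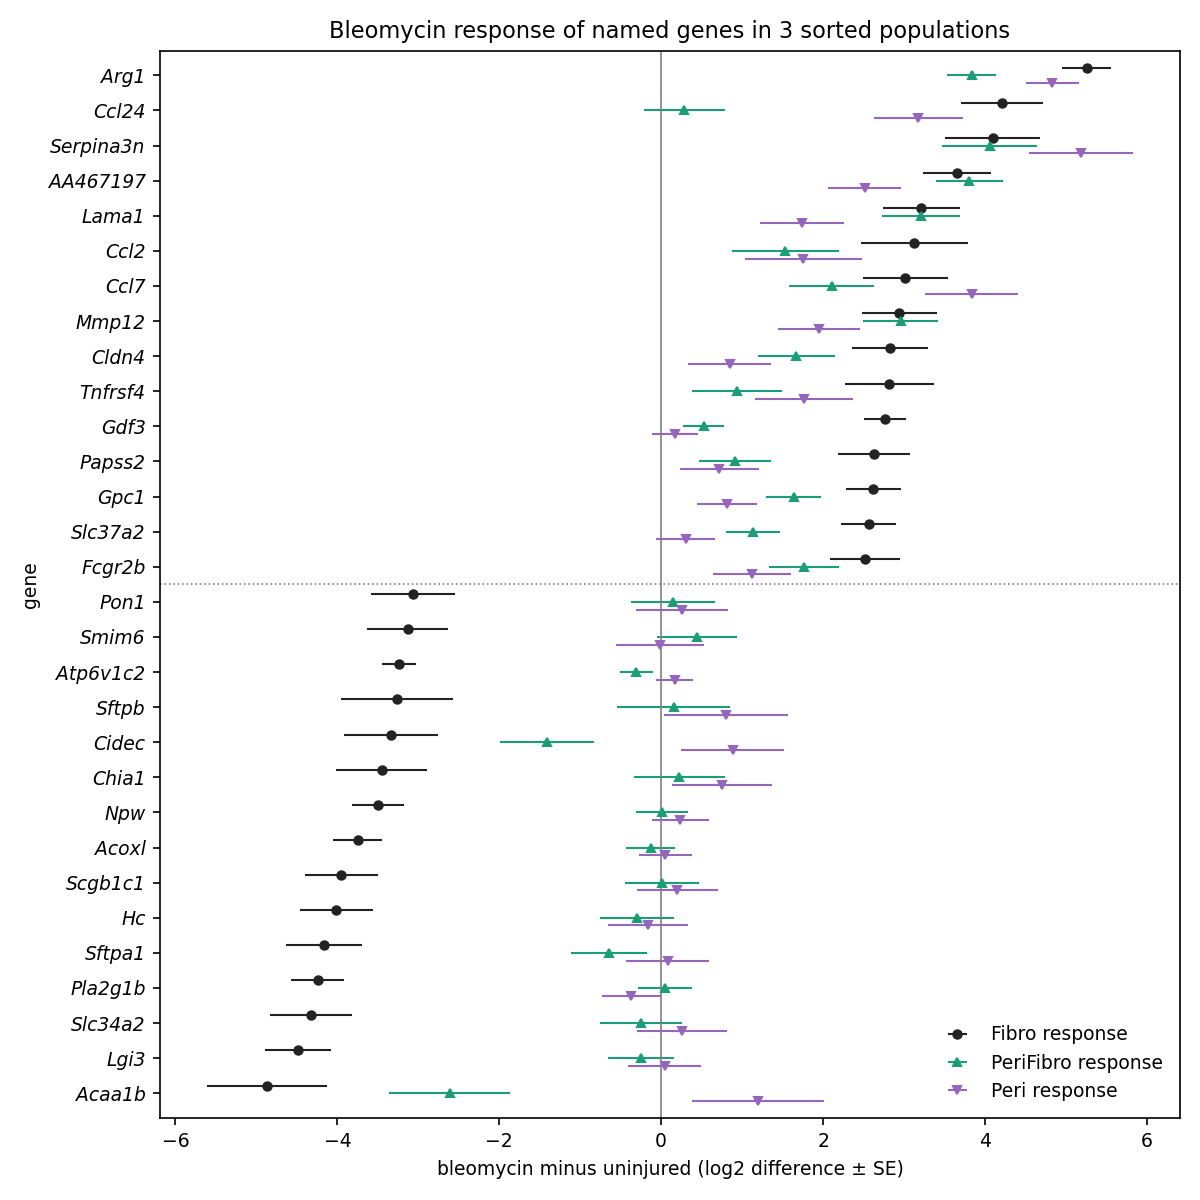
Bleomycin minus uninjured log2 difference ± SE of the 15 named and called genes with the largest rise and the 15 with the largest fall in Fibro cells (black circles), beside the same in PeriFibro (green triangles) and Peri cells (purple inverted triangles); the genes were chosen by the Fibro value. In PeriFibro cells Acaa1b (-2.61) and Cidec (-1.41) have the most negative values of the lower genes, and Arg1 and Serpina3n are high in all 3.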

How the data were processed

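RNA of Fibro, PeriFibro and Peri cells sorted from mouse lung was hybridised to single-colour Illumina MouseWG-6 v2.0 arrays, and the 14 arrays of 6 groups were used. The authors deposited a table of bead signal intensity per probe, not yet normalised, with a detection p-value for each probe and array as the scanner software gave it. The authors also deposited normalised values on a log2 scale, which the study's methods describe as variance stabilised and quantile normalised in lumi, and these served as an alternative. By the same methods, samples with poor hybridisation were taken out by the authors.

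In limma 3.58.1 (R 4.3.3) background was estimated through the detection p-values and subtracted by neqc, 16 was added as an offset, and values were quantile normalised and taken to log2. Of 45281 probes, 24445 had a detection p under 0.05 on 2 or more arrays and entered the fit. Of all probes 34885 carried 1 gene symbol, 18 several and 10378 none, and 10 symbols were updated. A gene was represented by its kept probe with the highest mean, and 5116 genes had more than 1. All groups were fitted together (lmFit, eBayes, 8 residual and 3.43 prior degrees of freedom), two-sided p-values were adjusted by Benjamini and Hochberg over 12443 genes, and genes were called at an adjusted p under 0.05 and 2-fold. Genes on X, Y or the mitochondrial genome (386) or unplaced (11) were then left out. Fold bounds of the form "at least" set the mean of the detected group against the other group's mean of, per array, the higher of the lowest detected signal and the probe's own signal.

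Between 39.4% and 44.4% of probes were detected per array, and the number of arrays limits the precision. Slides were not identified, so no slide block was fitted. Named genes were the 15 largest rises and falls among called genes without overlap, up to 4 called members per list, genes the study named, and the 5 largest called differences of response against PeriFibro and against Peri cells, and any other gene given with values was picked after its values were seen. The members and gene lists were chosen with earlier results of these data known. Alternatives changed the background correction, scaling, offset, detection filter, probe choice, samples fitted, array weights, variance model, replicate block, threshold and single arrays.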

Additional observations from a re-analysis of the deposited data

Results flagged for a closer look

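For these results a test of the difference between responses to bleomycin passed its threshold. They are given as log2 values of the Fibro response minus the other response. Against PeriFibro cells 15 genes differed. Gdf3 had the more positive response in Fibro cells, by 2.247, a call that held in 6 of 19 alternatives. The response was more negative for Lgi3 (-4.231), a secreted protein, for the phospholipase Pla2g1b (-4.289), for the secretoglobin Scgb1c1 (-3.955), for Acoxl (-3.621), for neuropeptide W, Npw (-3.509), and for the proton pump subunit Atp6v1c2 (-2.935). These 6 genes were at or near the detection limit in PeriFibro and Peri cells with or without bleomycin, where they could hardly fall, so the values reflect their level in uninjured Fibro cells.

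Against Peri cells 57 genes differed. The more positive responses among the named genes were those of Tlr1 (2.895) and Gdf3 (2.599). Surfactant and type 2 cell genes were more negative, Slc34a2 by -4.585, Sftpa1 by -4.242 and Hc by -3.857. Slc34a2 was detected on 1 of 4 Peri arrays, Hc on 2 and Sftpa1 on 3. Low levels in Peri cells also limit what can be read for the genes already found against PeriFibro cells, with Lgi3 at -4.524, Scgb1c1 at -4.146, Pla2g1b at -3.874, Acoxl at -3.801, Npw at -3.734 and Atp6v1c2 at -3.409. Acaa1b had the most negative value, -6.066, among these named genes. It was detected on 1 of 4 Peri arrays, where it, too, could hardly fall. Wfdc2, a secreted protein of airway epithelium, stood at -4.954 and Prnp, the prion protein, at -4.456, with rises in Peri cells of 3.04 for Wfdc2 and 4.02 for Prnp. In Fibro cells neither was called, with -1.91 (adjusted p = 0.0655) for Wfdc2 and -0.43 (adjusted p = 0.873) for Prnp. Gpnmb stood at -4.103. Rprm, detected on 0 of 4 Peri arrays, stood at -2.399 and Gsta4, which averaged 4.89 in uninjured Peri cells, at -2.24. Both could hardly fall there.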

How the results depend on the processing

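Fibro calls (190, 68 higher and 122 lower) became 52 (19 and 33) on the deposited normalised values, 98 (34 and 64) without background correction, 84 (35 and 49) with scaling to a common median, which moved the median of all genes to 0.114, 102 (30 and 72) with array weights, 96 (32 and 64) without both Fibro arrays numbered 2, and 5 (2 and 3) when only the Fibro groups were fitted, where 987 genes had an unadjusted p under 0.05. Leaving out single arrays gave 80 to 307 calls, 16 to 143 higher and 64 to 164 lower. The higher share was 35.8% of calls, 46.6% without bleomycin replicate 2, and 16 of 80 calls without uninjured replicate 2. Without an uninjured array the lone sample is assumed to vary like the other groups. The 15 differences from PeriFibro became 5 with median scaling, 24 with an offset of 50, 30 with the mean of a gene's probes, 3 when only the compared groups were fitted, 31 with array weights, 37 with trended and robust variance, and 9 to 34 without single arrays. The 57 differences from Peri became 21 on deposited values, 5 with median scaling, 33 without both arrays numbered 2, 23 to 80 without single arrays, and 0 in limma when only the compared groups were fitted, where 919 had an unadjusted p under 0.05. The causes were not tested. With a replicate block 146 Fibro genes, 6 PeriFibro differences and 39 Peri differences were called. Deviations of same-numbered arrays correlated at 0.611 and 0.665 in Fibro, 0.212 and -0.195 in PeriFibro and -0.178 and -0.178 in Peri cells. In a group of 2 arrays the deviations mirror each other, so the 2 values of a population are not separate checks. The values differed between populations, and the numbers were not taken as pairs, although both Fibro values were positive. No named call changed direction under these settings, and 23 to 50 of 50 named calls were kept except in the fit of the compared groups alone, which kept 5. Probes near background understate folds.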
